A study of Drosophila melanogaster with 4 samples.

Results

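The mitochondrial ribosomal proteins are the nuclear-encoded proteins of the ribosome that works inside mitochondria. In Drosophila their genes carry symbols that begin with mRpL for the large subunit and mRpS for the small subunit. All genes with such a symbol followed by a number were taken, and their transcripts were summed per gene. This gave 73 of the 14029 genes in the deposited values, 47 of the large and 26 of the small subunit. The rule used the symbol and no expression value, but the genes were chosen with earlier results of these data known.

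Mitochondrial DNA encodes a small set of membrane proteins of the respiratory chain and the ribosomal RNAs that serve to translate them. The ribosomal proteins are made in the cytoplasm, imported and assembled on these RNAs, so the supply of both subunits bears on how much respiratory chain a cell can build. Some of the proteins have relatives in bacterial ribosomes and keep the bacterial number. Others, mostly with higher numbers, have no bacterial relative and were added in the mitochondrial lineage. Flight muscle is known for a high demand for oxidative metabolism.

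RNA was sequenced from third-instar larvae raised at 25 °C and labelled as male. The wild type was Canton S (+/+), and the Inr-a duplication larvae (pcf11/+) carried an extra copy of Inr-a, also named Pcf11, which encodes a factor of the cleavage and termination of transcripts. They were progeny without GFP from w[a]; Pcf11Dup/CyO GFP males and Canton S females, so they also carried chromosomes of the duplication stock while the wild type larvae were Canton S throughout, and the duplication and this background cannot be told apart. There were 2 libraries per genotype, described as biological replicates, and each was made from a pool of whole larvae.

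The deposited values are means over the libraries of a genotype in CPM, the counts of a transcript divided by the total of its library and given per 1000000. The counts of each library were recovered from them, and within a genotype the deeper library is called A and the other B, letters that do not correspond to replicate numbers in the labels. The totals were 11304266 to 15423445 counts, of which 0.188% to 0.269% fell on the mitochondrial ribosomal protein genes. Inr-a itself had 758 and 656 counts in wild type and 1285 and 1338 counts in the duplication, a ratio of CPM of 1.51 with a limma adjusted p of 0.180. Among marker genes chosen as a check on the larvae, the summed level of 5 body muscle genes was 1744 and 1223 CPM in wild type and 2516 and 4206 CPM in the duplication, and that of 12 male germline genes was 945 and 1068 against 731 and 603 CPM. In the wild type means, betaTub85D gave 582 CPM and Mst87F 301 CPM of the 1007 CPM of the germline genes. Of the 12 germline genes, 6 had a ratio above 1. The summed authors' means of 9 markers of third-instar larvae were 83470 CPM in wild type and 94110 CPM in the duplication. In bulk RNA from whole larvae, fewer cells of a type and less RNA per cell cannot be told apart.

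All 73 genes were expressed. Their counts ran from 59 to 1652 per library, and 69 genes had at least 100 counts in each of the 4 libraries. All passed the filter on low counts, so none was left out of the test. The genes lie on chromosome arms 2L (12), 2R (12), 3L (17), 3R (21) and X (11). Their transcripts were short, with a median length of 739 bases and a range of 327 to 1924 bases. In the annotation of Ensembl release 115, 42 of the genes share exon bases with a gene on the opposite strand and 3 with a gene on the same strand. Nothing in the sources states that reads were assigned by strand, so values of these genes may include reads of the neighbour.

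Levels between genes were compared per kilobase of transcript, after scaling the libraries with TMM, a method that sets the libraries to a common level over most genes. In wild type the median was 36.1 scaled CPM per kilobase, and the highest and lowest genes differed 17.4-fold. The most abundant was mRpL42, a large subunit protein without a bacterial relative, at 149 scaled CPM per kilobase. It was followed by mRpL53, also specific to mitochondria, at 114.9, by mRpS14, a protein of the head of the small subunit, at 104, and by mRpL2, which lies near the peptidyl transferase centre, at 96.1 scaled CPM per kilobase. The least abundant were mRpL37 at 8.58, mRpL13 at 10.7, mRpS11 at 12.01 and mRpL18 at 13.2 scaled CPM per kilobase. The RNA levels of the proteins of this ribosome were thus unequal. The order of levels was nearly the same in both genotypes. On unscaled CPM per kilobase the Spearman rho was 0.965 across the 73 genes, which are not independent replicates. The value for mRpL53 is uncertain, because all 829 bases of its transcript also belong to CG33155 on the same strand. That of mRpS14 may include reads of neighbours too. Of an expressed length of 484 bases it shares 255 exon bases with Naa15-16 on the opposite strand and 30 with CG32533 on the same strand.

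The comparison of the genotypes asked whether an extra copy of Inr-a goes with other levels of these genes. Most of them were lower in the Inr-a duplication, and no single gene passed the test. The ratio of unscaled CPM was below 0.75 for 31 genes, from 0.75 to below 1 for 34 and above 1 for 8. The summed level of the 73 genes was 2415 and 2656 scaled CPM in wild type and 2177 and 1811 scaled CPM in the duplication. The means were 2535 ± 170 and 1994 ± 259 (SD, n = 2), a ratio of 0.787, and the groups did not overlap. With 2 libraries against 2, the two-sided exact permutation p was 0.333, the smallest that this design allows. The median log2 fold change over the 73 genes was -0.30, against 0.02 over the 11540 genes tested, and it ranged from -0.84 to 0.44. Short genes in general had negative values, with medians of -0.17 to -0.20 in the length classes that hold 72 of the 73, and with a trend with transcript length removed the median over the 73 genes was -0.12. It was -0.47 without duplication library A. The fold change was below 0 for 65 of the 73 genes and above 0 for 8. Of all genes tested 48.5% were below 0. That share was 65.08% for transcripts under 600 bases, 68.55% from 600 to under 900 and 64.59% from 900 to under 1500 bases.

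limma with Benjamini-Hochberg adjustment over all genes called 0 of the 73 genes lower and 0 higher at an adjusted p below 0.05, where it called 0.503% of all genes lower and 1.72% higher. The lowest adjusted p was 0.0889, for mRpS26, and the standard errors of the log2 fold changes were 0.26 to 0.35. At an unadjusted p below 0.05, 6 were lower, where 8.61% of all genes were, and 0 were higher, where 12.2% of all genes were. Voom, the other weighting tried in limma, also gave 0 calls and 6 genes lower at an unadjusted p below 0.05. For 48 of the 73 genes the duplication libraries both lay under the wild type pair, where 26.7% of all genes did so. They both lay over it for 1 gene, where 27% of all genes did so, and the genotypes overlapped for the other 24. Among all genes of the same lengths the shares were nearer to those of the 73, at 37.2% under and 14.02% over for transcripts below 600 bases, 42.7% and 11.9% from 600 to under 900, and 40.6% and 14.3% from 900 to under 1500 bases. The mitochondrial ribosomal protein genes lay under in 13 of 16, 21 of 32 and 14 of 24 cases in these classes. On CPM that were not scaled, 55 genes lay below in this way.

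**Figure D1:**
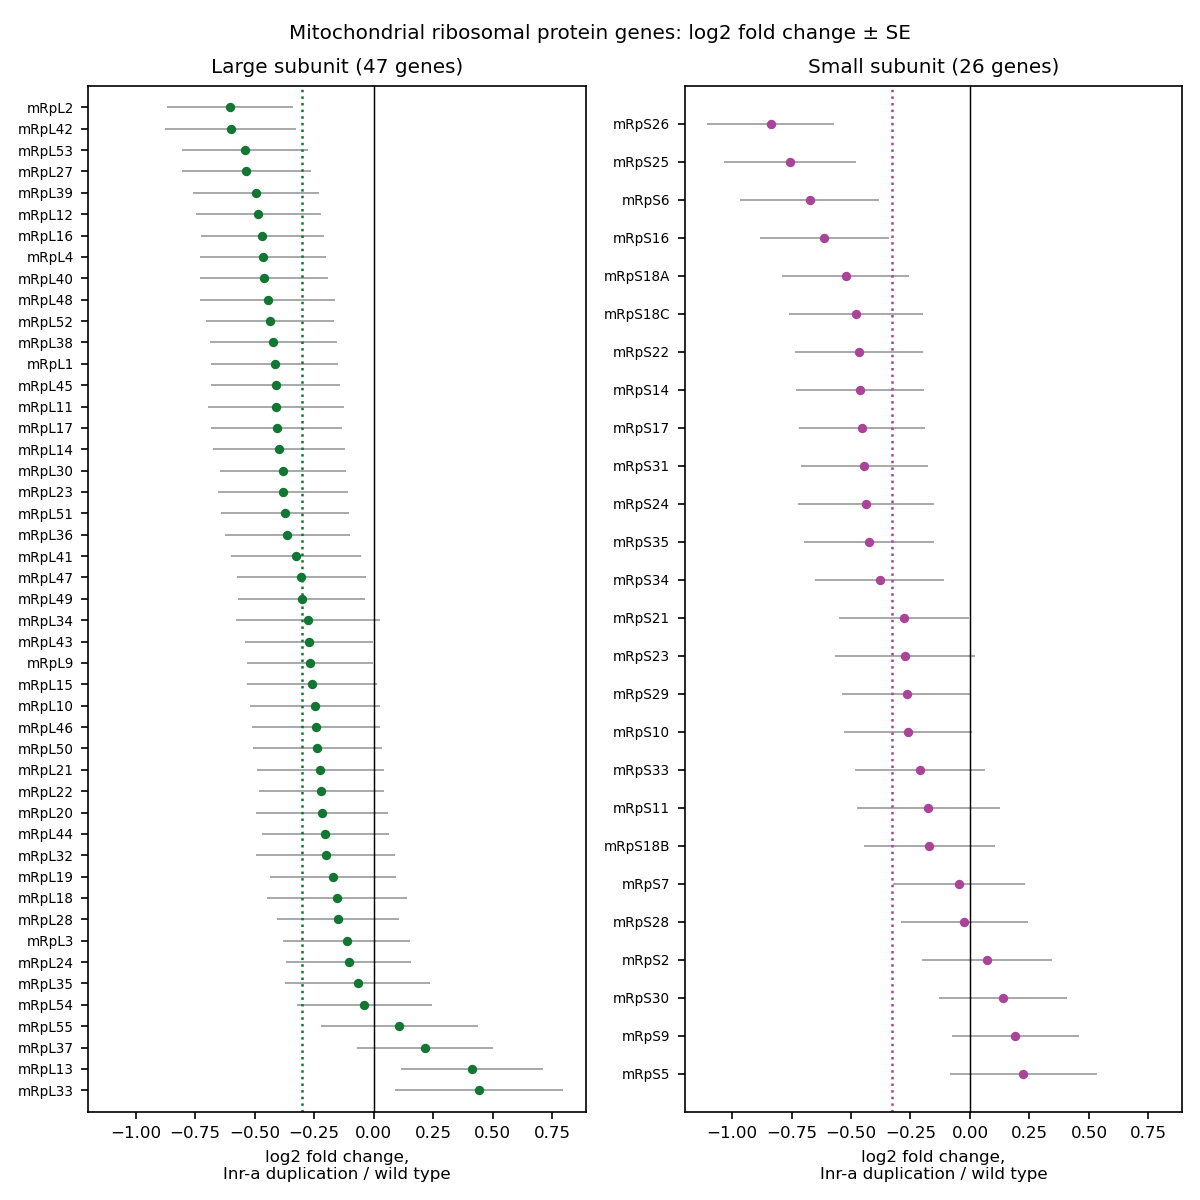
The log2 fold change between the Inr-a duplication and wild type (x axis) of each mitochondrial ribosomal protein gene, in order of the value, for the large subunit (left) and the small subunit (right). Points are limma estimates from 2 libraries per genotype, bars are ± SE, and the dotted lines are the medians of -0.30 and -0.33. Of the 73 points 65 lie below 0, where 48.5% of all genes tested do.

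Both subunits had medians below 0, with genes assigned by symbol. This counts mRpS18A and mRpS30 as small subunit genes, although their human counterparts belong to the large subunit. The median log2 fold change was -0.30 over the large subunit genes, with 43 of 47 below 0, and -0.33 over the small subunit genes, with 22 of 26 below 0. Of all genes tested 48.5% were below 0. The 42 genes with a bacterial number had a median of -0.26 and the 31 genes with a higher number one of -0.37, and with the length trend removed these were -0.07 and -0.17. By chromosome arm the medians were -0.21 for the genes of 2L, -0.30 for 2R, -0.38 for 3L, -0.27 for 3R and -0.38 for X, and with the length trend removed -0.02, -0.15, -0.18, -0.06 and -0.17 in the same order. Over all genes tested the medians of these arms were between -0.01 and 0.04. The 30 genes that share no exon bases with a neighbour had a median of -0.25, and the 43 that share some had one of -0.33, or -0.05 and -0.15 with the length trend removed. The more abundant genes had the lower fold changes. The median was -0.41 over the 37 genes with the higher mean level and -0.26 over the 36 with the lower one, and 6 of the 8 positive fold changes belonged to the latter.

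The single libraries differed as well within a genotype. Relative to each gene's mean over the 4 libraries, the median log2 level was 0.08 in wild type A and 0.27 in wild type B, and -0.06 in duplication A and -0.26 in duplication B. Wild type B held the highest value for 54 genes and duplication B the lowest value for 54 genes. Wild type A was below wild type B for 57 of the 73 genes, with a median difference of -0.18, and duplication B was below duplication A for 59, with a median difference of -0.17. Against the wild type mean, the median log2 fold change was -0.21 in duplication library A and -0.45 in duplication library B, with 63 of 73 genes lower in each and 60 lower in both. Of the 11540 genes tested, 5621 were lower in duplication library A and 5578 in duplication library B. Without duplication library A, 3 genes were called lower by limma, namely mRpS26 (adjusted p = 0.0140), mRpS25 (adjusted p = 0.0262) and mRpL42 (adjusted p = 0.0491), and the share of all genes called lower was then 4.3%, with 489 calls in place of 58. Without duplication library B, 0 genes were called lower, where 0.291% of all genes were, and 0 reached an unadjusted p below 0.05, where 2.34% of all genes were lower. The lone library was there assumed to vary like the wild type.

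**Figure D2:**
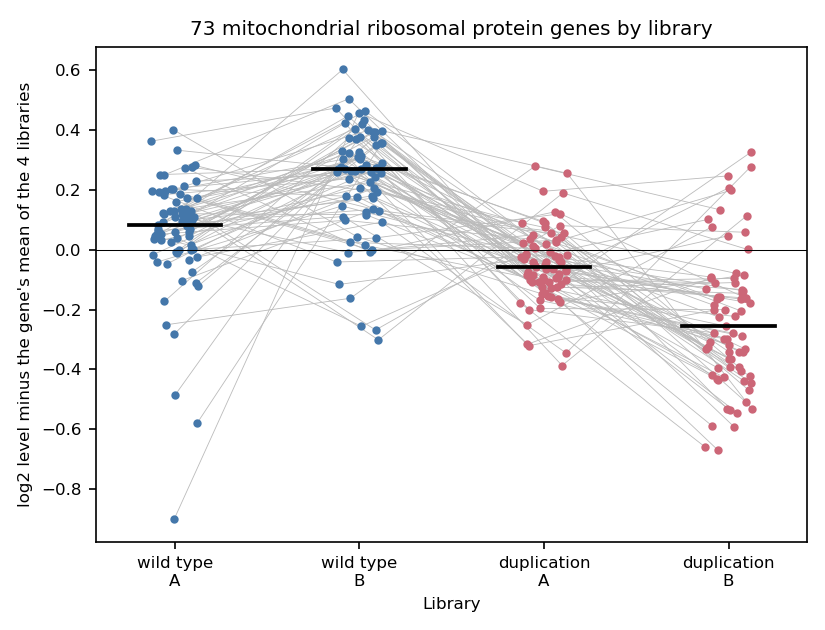
The log2 level of each of the 73 genes minus its mean over the 4 libraries (y axis), by library (x axis), on TMM-scaled CPM. Grey lines join the points of a gene and black bars are the medians of 0.08, 0.27, -0.06 and -0.26. The genes were mostly highest in wild type library B and lowest in Inr-a duplication library B.

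The 6 genes with the lowest fold changes were 4 of the small and 2 of the large subunit. mRpS26 encodes a mitochondria-specific protein of the small subunit and lies on 3L (18106579 to 18107499, BDGP6.54). It had 72.9 and 78.7 scaled CPM in wild type and 49.9 and 35.6 in the duplication, from 923, 902, 725 and 521 counts. Its log2 fold change was -0.84 (SE 0.27), and both duplication libraries lay well below both wild type libraries. mRpS26 shares no exon bases with another gene. mRpS25, also specific to mitochondria, lies on X (14582136 to 14582982). It had 37.8 and 45.2 scaled CPM in wild type and 29.9 and 19.8 in the duplication, with a log2 fold change of -0.75 (SE 0.28, limma adjusted p = 0.136).

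mRpS6 encodes the protein that in bacteria pairs with S18 on the platform of the small subunit. It had 18.3 and 26.7 scaled CPM in wild type and 16.4 and 11.4 in the duplication, and the wild type libraries differed almost as much as the groups did (log2 fold change -0.67, SE 0.29). mRpS16 encodes a protein whose loss in humans causes a combined deficiency of the respiratory chain. It had 45.3 and 51.7 scaled CPM in wild type against 37.3 and 26.6, with a log2 fold change of -0.61 (SE 0.27). mRpL2 was well separated, at 102.1 and 97.7 scaled CPM in wild type and 77.4 and 55.6 in the duplication (log2 fold change -0.60, SE 0.26). mRpL42 had 60.8 and 76.4 scaled CPM in wild type and 54.9 and 36.4 in the duplication, for a log2 fold change of -0.60 (SE 0.27). In each of these 6 genes duplication library B was the lowest of all, and the groups did not overlap.

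The 6 genes with the highest fold changes were mostly sparse, and 5 of them overlapped between the groups. mRpL13, whose bacterial relative binds the large ribosomal RNA early in assembly, was the exception and the only gene of the 73 with both duplication libraries above both wild type libraries. It had 88 and 85 counts in wild type and 149 and 135 in the duplication, or 6.95, 7.42, 10.3 and 9.23 scaled CPM, with a log2 fold change of 0.41 (SE 0.30, limma adjusted p = 0.427). It shares 236 exon bases on the same strand with CG10602, a gene with 1372 and 964 counts in wild type and 1722 and 1719 in the duplication, and the part of reads from CG10602 in its value was not tested. mRpL33 had the largest fold change, 0.44 (SE 0.35), from 4.66 and 12.8 scaled CPM in wild type and 10.5 and 10.9 in the duplication. Here the difference lay between the wild type libraries, and wild type B was above both duplication libraries.

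mRpS5, whose bacterial relative sits at the entry of the messenger RNA channel, had 11.8 and 23.0 scaled CPM in wild type and 16.6 and 22.5 in the duplication (log2 fold change 0.22, SE 0.31). mRpS9, whose bacterial relative reaches toward the tRNA in the P site, had 49.9 and 37.4 scaled CPM in wild type and 52.7 and 46.2 in the duplication (log2 fold change 0.19, SE 0.27). The protein of mRpS30 belongs in human mitochondria to the large subunit in spite of its name. It had 35.1 and 26.5 scaled CPM in wild type against 33.9 and 33.4 (log2 fold change 0.14, SE 0.27). mRpL37, a mitochondria-specific protein, had 12.9 and 10.4 scaled CPM in wild type and 12.7 and 14.4 in the duplication (log2 fold change 0.22, SE 0.29). In these 4 genes the spread within a genotype was as large as the difference. The remaining positive values were 0.11 for mRpL55 and 0.07 for mRpS2.

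**Figure D3:**
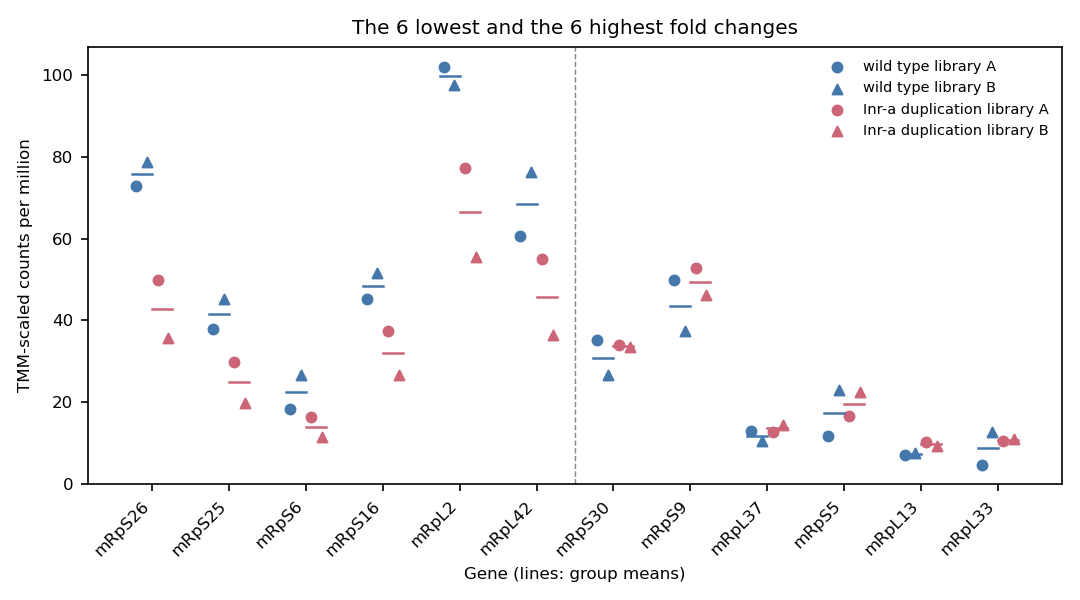
TMM-scaled CPM (y axis) in each library of the 6 genes with the lowest (left of the dashed line) and the 6 with the highest log2 fold change (right). Circles are libraries A and triangles libraries B, with group means as short lines. On the left the duplication libraries sit below the wild type libraries in every gene, and on the right only mRpL13 is separated, at 6.95 and 7.42 against 10.3 and 9.23.

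Genes of known sites of the ribosome were spread over this range. The stalk, which recruits translation factors, is built from mRpL10 and copies of mRpL12. mRpL12 had 55.2 and 56.2 scaled CPM in wild type and 44.96 and 34.9 in the duplication, a log2 fold change of -0.49 (SE 0.26, limma adjusted p = 0.286) with close wild type libraries. mRpL10 had 25.1 and 34.9 against 25.8 and 23.9 scaled CPM and overlapped between the groups (log2 fold change -0.25). Per kilobase, mRpL12 stood at 75.5 and mRpL10 at 33.2 scaled CPM in wild type.

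In the conserved core of the large subunit, mRpL4 resembled mRpL2, with 60.7 and 65.9 scaled CPM in wild type and 53.1 and 39.4 in the duplication (log2 fold change -0.46, SE 0.26). mRpL3, which binds near the same centre, overlapped, at 30.4 and 27.7 against 28.9 and 24.8 scaled CPM (log2 fold change -0.11, SE 0.27). Around the exit tunnel for the new protein chain, the log2 fold changes were -0.22 for mRpL22, -0.38 for mRpL23 and -0.11 for mRpL24. mRpL23 had the tightest libraries of these, at 19.8 and 19.5 scaled CPM in wild type and 15.7 and 14.3 in the duplication. In the small subunit mRpS7, whose bacterial relative starts the assembly of the head, overlapped at 27.3 and 42.0 against 31.3 and 34.5 scaled CPM (log2 fold change -0.05, SE 0.28).

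The fly has 3 genes related to bacterial S18. In human mitochondria the product of the first, MRPS18A, belongs to the large subunit, while the products of the others sit in the small subunit. mRpS18A had 25.7 and 26.1 scaled CPM in wild type and 17.1 and 18.7 in the duplication. Its log2 fold change was -0.52 (SE 0.27, limma adjusted p = 0.264), and it is among the clearest separations, since both pairs of libraries were close. mRpS18C had 15.7 and 20.4 against 13.1 and 12.4 scaled CPM, for a log2 fold change of -0.48 (SE 0.28). mRpS18B was nearest to no difference, at 17.3 and 20.5 against 17.3 and 16.1 scaled CPM (log2 fold change -0.17, SE 0.28). Of the sparse genes not yet described, mRpS11, a platform protein, had a log2 fold change of -0.18 and mRpL18, whose bacterial relative binds the 5S ribosomal RNA, one of -0.15, and both overlapped between the groups. Of the abundant ones, mRpL53 had a log2 fold change of -0.54 and mRpS14 one of -0.46, and neither overlapped.

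Fold changes also went with transcript length over the whole series, and these genes are short. Over all genes tested the median log2 fold change was -0.19 for transcripts under 600 bases, -0.20 from 600 to under 900, -0.17 from 900 to under 1500, 0.00 from 1500 to under 2500, 0.24 from 2500 to under 4000 and 0.43 from 4000 bases on. The mitochondrial ribosomal protein genes in the first 3 of these classes had medians of -0.41 (16 genes), -0.27 (32 genes) and -0.26 (24 genes), each below that of all genes of their class. The only longer one was mRpS30. Over 11510 genes the Pearson r between log2 length and log2 fold change was 0.315. Among the 73 genes it was 0.124, but all of them except mRpS30 lie in the first 3 classes. There the medians of all genes hardly changed with length either, so the values of r are not comparable. The wild type libraries differed by length too, with an r of 0.466 between log2 length and the difference of A and B. After the length trend of each library was removed, the median over the 73 genes was -0.12, with 53 genes below 0. Of the 73 genes 0 were then called lower, where 0.615% of all genes were, and 3 were lower at an unadjusted p below 0.05, where 8.67% of all genes were. mRpS26 then had a log2 fold change of -0.64, mRpS25 one of -0.55 and mRpS18A one of -0.32. Part of the median thus moved with length, and what ties length to the libraries was not tested.

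**Figure D4:**
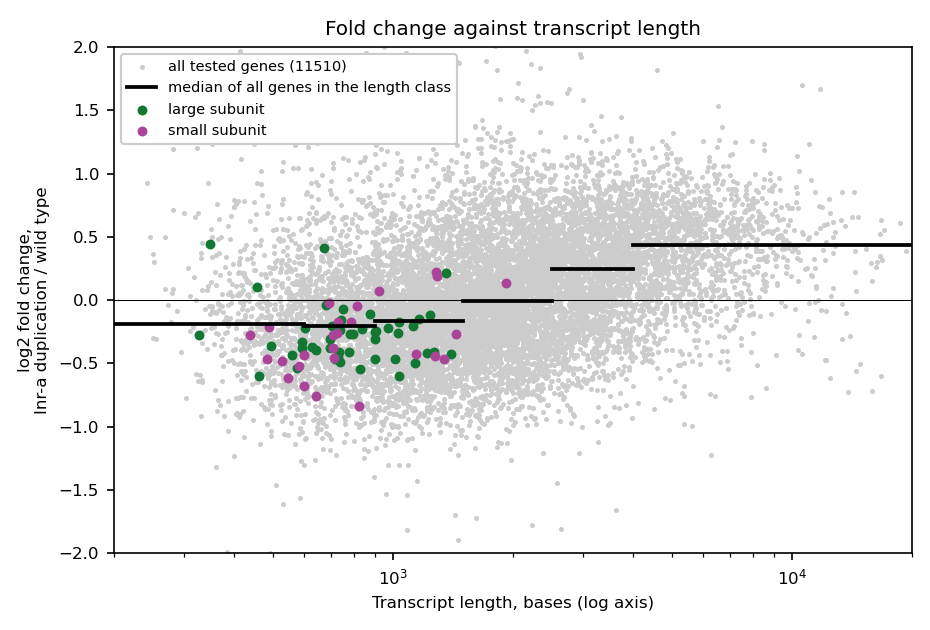
The log2 fold change between the Inr-a duplication and wild type (y axis) against transcript length in bases (x axis, log scale) for 11510 genes (grey) and the mitochondrial ribosomal protein genes of the large (green) and small (purple) subunit. Black lines are medians of all genes in 6 length classes, from -0.19 in the shortest to 0.43 in the longest, and 76 genes lie outside the axes. Most coloured points lie below the line of their class.

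Of the 73 genes 55 have a single deposited transcript and 18 have several, 96 transcripts in all. Transcripts of a gene share most of their bases, so the split of reads between them is an estimate of the quantifier. limma on single transcripts called 0 of the 92 transcripts of these genes that were tested, and 0 of the 20111 in the series (0%). At an unadjusted p below 0.05, 5 of the 92 were lower, near the 4.64% of all transcripts, and 0 were higher, where 6.71% of all transcripts were. A negative fold change was found for 76 of the 92 and for 48.2% of all transcripts.

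The most used transcript differed between the genotypes in 1 gene, mRpL27, whose bacterial relative reaches into the peptidyl transferase centre. FBtr0345633 had 206 and 272 counts in wild type and 120 and 136 in the duplication, and its share of the gene was 60.3% and 38.9%. FBtr0077451 had 114 and 105 counts in wild type and 198 and 136 in the duplication, and its share was 27.4% and 50.1%. The gene as a whole had 30 and 36.4 scaled CPM in wild type and 25.3 and 20.2 in the duplication (log2 fold change -0.54, SE 0.27). FBtr0345633 alone had a log2 fold change of -1.13 (SE 0.30) with a limma adjusted p of 0.403 over transcripts. In mRpL28, which the rule for named genes did not pick and which was chosen after its values were seen, FBtr0078996 had 242 and 0 counts in wild type and 579 and 366 in the duplication, while FBtr0331227 had 850 and 1020 against 659 and 702. The split differed between the wild type libraries as well, and the gene as a whole differed little, with a log2 fold change of -0.15.

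Proteins of the same ribosome with other names were looked at next. tko, which encodes the mitochondrial S12 protein and takes its name from the paralysis of mutant flies after a mechanical shock, had 310 and 377 counts in wild type and 292 and 283 in the duplication (log2 fold change -0.51, SE 0.27, limma adjusted p = 0.278), and its groups did not overlap. bonsai, the mitochondrial S15, had 360 and 274 against 359 and 339 counts (log2 fold change -0.12). The factors that work on this ribosome had similar values. Of 9 mitochondrial translation factors 8 had negative fold changes, 0 were called, and the median was -0.39. mEFTu2, an elongation factor that brings aminoacyl-tRNA to the ribosome, had 1310 and 1143 counts in wild type and 1192 and 798 in the duplication (log2 fold change -0.60, SE 0.27). mRF1, a release factor, had 142 and 86 against 88 and 88 counts (log2 fold change -0.57, SE 0.31). The transcripts of these factors are longer, with a median of 1711 bases, and after the length trend was removed their median was still -0.39. mIF3, an initiation factor, was the exception, at 0.36 (SE 0.29).

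Other mitochondrial groups had negative medians as well. Of 14 chaperones and proteases 13 had negative fold changes and the median was -0.25, and 0 were called while 5 were lower at an unadjusted p below 0.05, where 8.61% of all genes were. These 5 were Spg7 and Hsp60A, Hsp60B, Hsp60C and Hsp60D, so all but Spg7 belong to the Hsp60 family of chaperonins. The lowest were Hsp60D at -0.81 and Hsp60C at -0.75. The medians were -0.10 over 16 mitochondrial aminoacyl-tRNA synthetases, with 11 below 0, and -0.12 over 14 genes of mitochondrial transcription, RNA handling and ribosome assembly, with 8 below 0. The median lengths of these lists and of the translation factors lie from 1500 to under 2500 bases, where 50.3% of all genes were below 0. With the length trend removed the medians were -0.37 for the chaperones and proteases, -0.23 for the synthetases and -0.14 for the transcription and RNA genes, each at least as far below 0 as the -0.12 of the mitochondrial ribosomal protein genes. limma called 0 genes of these lists. Without duplication library A it called 5 of the chaperones and proteases, 2 of the transcription and RNA genes and 1 of the translation factors lower, where 4.3% of all genes were. Without wild type library A it called 1 of the chaperones and proteases lower, where 0.636% of all genes were.

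Among 84 nuclear genes of oxidative phosphorylation, the process that the mitochondrial ribosome serves, 55 had negative fold changes and the median was -0.15, or 0.03 after the length trend was removed. Their median length was 677 bases, and 55 of 84 is 65.48%. Of all genes, 65.08% were below 0 for transcripts under 600 bases and 68.55% from 600 to under 900, so this count is near that of genes of such length. limma called 2 of them lower, where 0.503% of all genes were, and 0 higher, where 1.72% of all genes were. These were ATPsynGL and COX5BL, genes named as relatives of ATPsynG and COX5B. ATPsynGL had 574 and 487 counts in wild type and 311 and 295 in the duplication (log2 fold change -1.06, limma adjusted p = 0.0308). COX5BL had 614 and 530 against 393 and 297 counts (log2 fold change -0.999, limma adjusted p = 0.0480). The list holds such relatives beside the subunits themselves. At an unadjusted limma p below 0.05, 10 of its genes were lower, where 8.61% of all genes were. All 10 bear the name of a subunit followed by L. Only 1 gene of the list was higher, where 12.2% of all genes were. The count of lower calls was 0 without duplication library B, without wild type library A, without wild type library B (where 0.322% of all genes were called lower) and with the length trend removed. It was 5 without duplication library A, where 4.3% of all genes were. Of the 93 cytoplasmic ribosomal protein genes only 32 had counts per library, since the most abundant genes could not be resolved. Their median log2 fold change was -0.03, and the median ratio of the authors' means over all 93 was 0.890.

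The factors linked to mitochondrial biogenesis had mostly positive values. Positive fold changes were found for 7 of 9 such genes, the median was 0.55, and 0 were called. srl, the fly homologue of the coactivator PGC-1, had 92 and 78 counts in wild type and 167 and 257 in the duplication (log2 fold change 0.97, SE 0.30, limma adjusted p = 0.0836), and its groups did not overlap. Mnt, a repressor that competes with Myc for the same partner, had 64 and 49 against 83 and 195 counts (log2 fold change 0.85, SE 0.35). These genes have long transcripts, with a median of 3583 bases, and after the length trend was removed their median was 0.26. Of all genes from 2500 to under 4000 bases only 29.85% were below 0. Without duplication library A limma called 3 of them higher, where 4.76% of all genes were.

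**Figure D5:**
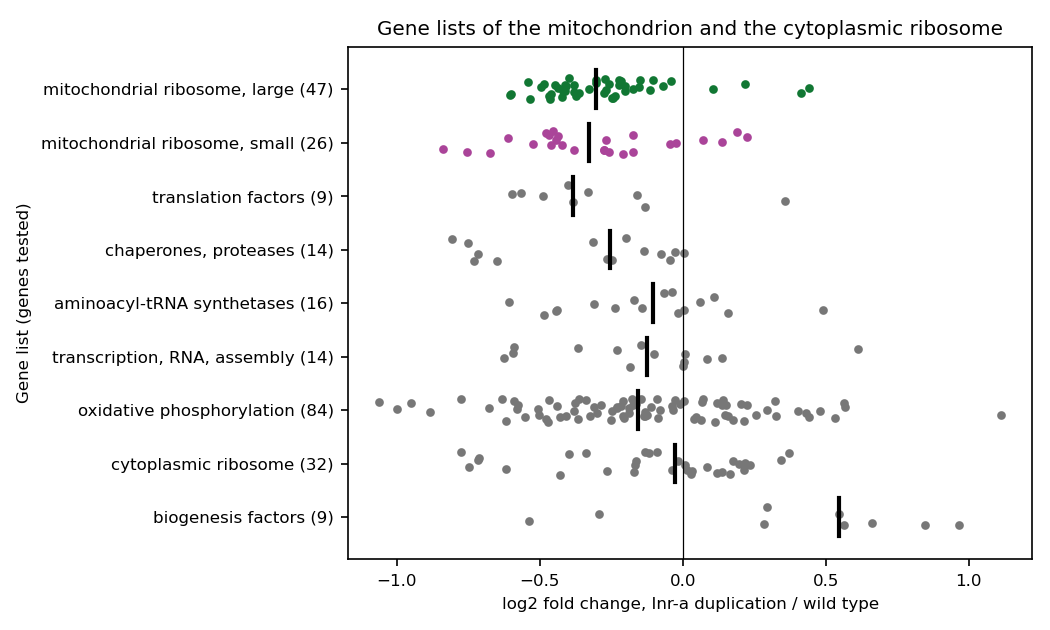
The log2 fold change between the Inr-a duplication and wild type (x axis) of single genes (points) in the mitochondrial ribosomal protein genes by subunit and in 7 other lists, with the number of genes tested in brackets. Black bars are list medians, from -0.39 for the mitochondrial translation factors to 0.55 for the biogenesis factors. Of the lists shown, oxidative phosphorylation alone has genes past the test, 2 in number, ATPsynGL and COX5BL.

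Levels of markers of other tissues also differed between the libraries of the genotypes. Of the 5 body muscle genes with counts 4 had both duplication libraries above the wild type pair and sls overlapped. Their log2 fold changes had a median of 0.95, the ratio of summed CPM was 2.27, and limma called Act57B and Mhc higher. The ratio of summed CPM was 0.663 for the 12 male germline genes, a sum held mostly by betaTub85D (ratio 0.667) and Mst87F (ratio 0.509). Of the 12 genes 6 had a ratio above 1. Of the 11 tested 6 had negative fold changes and 0 were called. For 7 genes of dividing tissue the ratio of summed CPM was 0.953. Of the 9 markers of third-instar larvae, whose libraries could not be resolved, 6 had a higher authors' mean in the duplication, and none of these markers was at 0. Their ratios ran from 0.731 for Fbp1 to 4.54 for Lsp1gamma. The adult female marker Yp1 was at 0 in both groups, and the levels of Yp2 and Yp3 were at most 2.69 CPM. The part of these tissues in the values of the mitochondrial ribosomal protein genes was not tested.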

How the data were processed

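RNA from pooled third-instar larvae was sequenced with paired ends on an Illumina instrument. Trimmomatic, Salmon 1.4.0 and the Ensembl transcriptome (BDGP6) were used by the authors to obtain transcript values, which they deposited as CPM averaged within a genotype for 30090 transcripts. A deposited ratio of these averages is the authors' own comparison and was not used. Each average was matched to the pair of whole counts that gives it at the fitted library totals. A unique pair was found for 99.4% of wild type and 99.7% of Inr-a duplication transcripts above 0. The 128 genes with several pairs, among the most abundant, were left out of values per library. The recovery and the test were tested on simulated data. As the deposited unit is CPM, no count model was run.

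Genes needed 10 counts, at the median depth, in 2 libraries or more, and a sum of 15. Differences were fitted by limma 3.58.1 with trend (R 4.3.3) on log2(TMM-scaled CPM + 0.5), adjusting over 11540 genes with a threshold of 0.05. Fold changes on this scale understate those of low genes. TMM factors of wild type A and B were 1.01 and 1.01, and those of duplication A and B were 0.942 and 1.04. Tables were made with Python 3.11.15. Alternatives were other scalings, filters and pseudocounts, voom, removal of a lowess length trend (span 0.3), transcripts in place of genes, and leaving out a library. Gene positions were taken from the BDGP6.54 annotation of Ensembl release 115, which is later than the authors' release.

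Named genes are the 6 lowest and 6 highest fold changes, the 4 highest and 4 lowest wild type levels per kilobase, landmark proteins (mRpL2, mRpL3, mRpL4, mRpL10, mRpL12, mRpL22 to mRpL24, mRpS5, mRpS7 and the mRpS18 genes) and genes whose most used transcript differs. From other lists the called genes and the 2 largest absolute fold changes could be named. mRpL28, mRpL55, mRpS2, mIF3, Hsp60A, Hsp60B, Spg7 and single markers were added after their values were seen. Of the symbols searched, 9 of 13 translation factors, 16 of 18 synthetases and 14 of 21 transcription, RNA and assembly genes were matched. The rest were left out. The genes and lists were chosen with earlier results of these data known.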

Additional observations from a re-analysis of the deposited data

How the results depend on the processing

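The median log2 fold change over the mitochondrial ribosomal protein genes was -0.33 with library size, -0.31 with median-of-ratios factors, -0.29 to -0.31 with other pseudocounts and -0.31 with voom, and 0 genes were called in each. It moved further when the length trend was removed, to -0.12 over all, -0.11 over the large and -0.16 over the small subunit. For scale, the medians of the 2 duplication libraries had an SD of 0.174. Leaving out a library in turn gave medians of -0.47 to -0.21 and 0 to 3 genes called lower. In 12 alternatives at the level of genes, 52 of the 73 genes were below 0 in every one. With transcripts in place of genes 0 were called. Over the whole series the calls were 199 higher and 58 lower, and 59 and 17 with library size, 45 and 14 with no filter, 542 and 489 without Inr-a duplication library A, 87 and 33 without library B of the duplication, 440 and 73 without library A of the wild type, and 195 and 37 without its library B. No paired analysis was possible because the recovered libraries carry no replicate numbers. With 2 libraries per genotype and standard errors of at least 0.26, shifts of the size seen here in single genes are within reach of the spread, so a missing call does not show equal levels.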
